A study of Mus musculus with 180 samples.

Results

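Amotl2, the gene of angiomotin-like 2, was followed across bone marrow-derived macrophages (BMDMs) of wild-type mice that received 1 of 58 clinical kinase inhibitors (CKIs), or DMSO as the vehicle, for 1 h before a 2 h stimulation with lipopolysaccharide (LPS, 10 ng/ml), the ligand of TLR4. The data comprised 180 polyA RNA-seq libraries, with 3 replicates for each CKI and 6 for DMSO in 2 sets of 3. All samples, DMSO included, received LPS, so no value here describes unstimulated cells. Each CKI was used at 1 concentration, chosen by the study for an intended target that can differ from the kinase the drug is designated for, and concentrations therefore differed between CKIs. Amotl2 is 1 of the 45070 genes in the table, and 12714 of these had a mean normalized value of at least 10 and were tested. Amotl2 was picked on its measured values, namely a fall with 3 JAK inhibitors (JAKi) that the rule does not name. All 6 JAKi contrasts are for that reason given as a description, with no test.

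Angiomotins are scaffold proteins of cell junctions and of the actin cytoskeleton. They bind YAP and TAZ, the transcriptional co-activators at the end of the Hippo kinase cascade, and promote their retention in the cytoplasm, and Amotl2 is itself a known target gene of YAP and TAZ with their DNA-binding TEAD partners. Amotl2 is best known from endothelial cells, where it connects VE-cadherin junctions to actin. JAK kinases signal from cytokine receptors to STAT transcription factors, and in LPS-treated macrophages they are activated by secreted interferon-beta and other cytokines.

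In the mm10 coordinates of the table Amotl2 spans chr9:102717804-102733417 on the plus strand, with a summed exon length of 4191 bases. GENCODE vM21, on the same assembly, lists 14 transcripts of the gene with 13 different starts, and 9 of the transcripts are protein-coding. The table gives 1 value for the gene, so promoter choice cannot be read from it. The RefSeq promoter window of Amotl2 (GRCm38.p6, 250 bases before to 50 after the start) was searched on both strands for 4 motifs related to the pathways named here. It held a CATTCC match, the core of the TEAD motif, whose first base lies 65 bases before the RefSeq start and which falls in the 5′ untranslated exon of a GENCODE transcript that begins farther upstream. It held no match to the AP-1 motif TGANTCA, the GAS motif TTCNNNGAA of STAT factors or the ISRE core of interferon-induced genes (GAAA, any pair of bases, GAAA). Of 32851 promoter windows of the same length, 14.7% held the TEAD letters, 7.81% the AP-1 letters, 8.30% the GAS letters and 3.44% the ISRE letters. The 30 bases around the Amotl2 match are shown with the match in capitals, beside the only such matches among the windows of the genes that followed Amotl2 most closely (described further on), which were an ISRE pair upstream of Trim26 and a GAS match upstream of Themis2.
Amotl2, chr9:102717727-102717756, plus strand: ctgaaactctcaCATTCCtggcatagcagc
Trim26, chr17:36836979-36837008, plus strand: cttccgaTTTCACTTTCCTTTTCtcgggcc
Themis2, chr4:132796450-132796479, minus strand: ttcggggcgcTTCAGAGAAccctgtagggc
The capitals in the Trim26 stretch cover 2 overlapping ISRE cores read on the opposite strand. Letters that match a motif are a description of the window and not evidence of binding.

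Amotl2 was a weakly expressed gene in these cells. Its mean over the 180 samples was 23.8 normalized read counts, and 1530 of the tested genes had a lower mean. From the spacing of the values in each library, the number of Amotl2 reads could be recovered in 167 samples and ran from 3 to 83, with a median of 22. Counting error is thus large in the lowest samples, and the within-group SD of Amotl2 was 0.66 on the log2(value + 1) scale. The 3 DMSO samples of set 1 had 34, 47 and 34 normalized counts, and those of set 2 had 50, 84 and 25. The sets overlapped, with log2 means of 5.28 and 5.59. An exact permutation test over the 20 splits gave a two-sided p = 0.6, but with 3 samples against 3 it cannot go below 0.1 and so could not have shown a difference. Per kilobase of exon length Amotl2 was the highest of the angiomotin family in DMSO, at 10.9 normalized counts per kb against 1.76 for Amot and 0.670 for Amotl1.

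**Figure D1:**
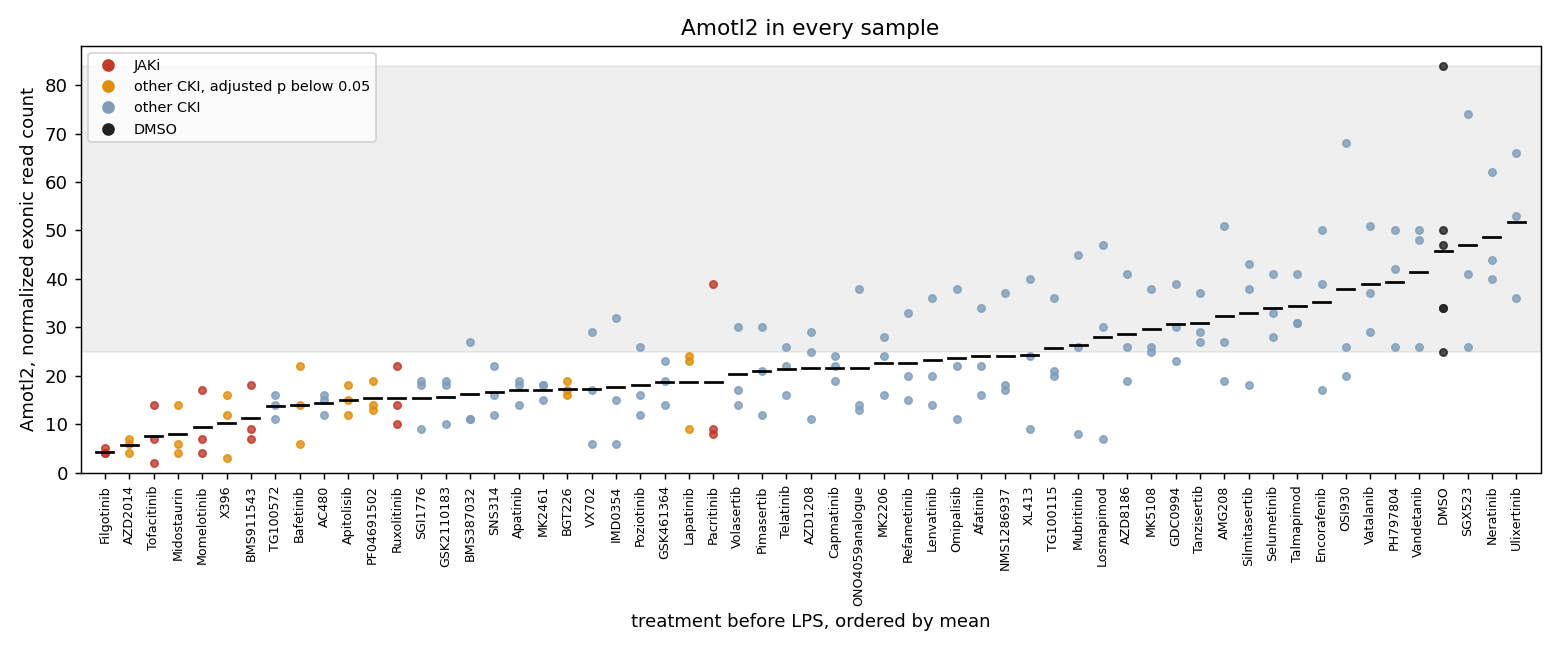
Normalized Amotl2 read count in each of the 180 samples (points) with the group mean (black line), ordered by mean over DMSO and 58 CKIs, and the DMSO range of 25 to 84 shaded. Filgotinib lies lowest with 4 to 5 counts, JAKi and AZD2014, Midostaurin and X396 fill the low end, and only SGX523, Neratinib and Ulixertinib have a mean above that of DMSO.

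The JAKi lay at the low end of the 59 groups. Amotl2 was picked for its fall with some of them, so this place is only a description. Filgotinib, designated as a JAK1 inhibitor, gave 5, 4 and 4 normalized counts, the lowest mean of any group and 9.49% of the DMSO mean of 45.7 ± 20.9 (SD, n = 6). Tofacitinib gave 14, 7 and 2, and Momelotinib gave 17, 7 and 4. BMS911543, designated for JAK2, gave 9, 7 and 18. All samples of these 4 JAKi lay below all 6 DMSO samples. Ruxolitinib gave 14, 22 and 10, also below every DMSO sample. Pacritinib gave 9, 8 and 39, so that replicate 3 fell inside the DMSO range.

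On the log2(value + 1) scale, which understates changes of low genes, the JAKi differences from DMSO were −3.03 for Filgotinib, −2.61 for Tofacitinib, −2.27 for Momelotinib, −1.91 for BMS911543, −1.50 for Pacritinib and −1.47 for Ruxolitinib, each with a standard error of 0.46. The 3 lowest are Filgotinib, Tofacitinib and Momelotinib, and the values just outside them, if those are the 3 of the rule, are those of BMS911543 and Pacritinib. Without replicate 3 the Pacritinib difference was −2.45, and without replicate 2 it was −0.84. The JAKi were not tested against each other, since their concentrations differed. The share of mitochondrial transcripts, a measure of RNA and cell quality, was 0.759% to 1.94% in DMSO, 1.22% to 2.52% with Filgotinib, 1.35% to 4.01% with Tofacitinib, 0.997% to 1.36% with Momelotinib and 0.892% to 4.20% with Pacritinib. BMS911543 and Ruxolitinib stayed between 1.03% and 1.22%, inside the DMSO range.

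Low Amotl2 was not limited to JAKi. Of the 52 other CKIs, 8 had lower Amotl2 than DMSO at an adjusted p below 0.05 and 0 had higher Amotl2 (limma on log2 values, Benjamini-Hochberg adjustment over the 12714 genes of each contrast). At an unadjusted p below 0.05 the numbers were 32 lower and 0 higher. These contrasts share the 6 DMSO samples that the rule used, and Amotl2 was high in DMSO relative to most groups, so they are not independent of the choice of the gene. Only 3 of the 58 CKIs had a mean above DMSO.

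AZD2014, an mTOR inhibitor, gave 7, 6 and 4 normalized counts, a range that overlapped that of Filgotinib. Its difference from DMSO was −2.73 ± 0.46 (SE; limma adjusted p = 1.05e-06), in a contrast where 19.6% of all tested genes were called. Midostaurin, a multi-kinase inhibitor that the study used against TBK1, gave 14, 4 and 6 and a difference of −2.43 (limma adjusted p = 7.98e-05; 4.56% of genes called). X396, an ALK inhibitor, gave 12, 3 and 16 and a difference of −2.17 (limma adjusted p = 0.00393), where 0.558% of genes were called. In these 3 groups every sample lay below every DMSO sample. The DMSO samples are those the rule used, so these p-values are not independent of the choice of Amotl2. In the comparison without DMSO given further on, AZD2014 and Midostaurin were called and X396 was not.

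Bafetinib, a BCR-ABL and LYN inhibitor, gave 6, 14 and 22 and a difference of −1.69 (limma adjusted p = 0.0288; 2.13% of genes called). Of the PI3K and mTOR inhibitors, Apitolisib, which the study used to target JAK1, gave 18, 15 and 12 and a difference of −1.45 (limma adjusted p = 0.0271; 15.9% of genes called). PF04691502 gave 19, 13 and 14 with −1.43 (limma adjusted p = 0.0273; 13.1% of genes called), and BGT226 gave 19, 16 and 17 with −1.24 (limma adjusted p = 0.0294; 30.4% of genes called). Lapatinib, an EGFR and ERBB2 inhibitor, gave 9, 24 and 23 with −1.25 (limma adjusted p = 0.0378; 23.3% of genes called). All samples of these 5 groups lay below the lowest DMSO sample too, as did those of 22 of the 58 CKIs in all. These p-values rest on the DMSO samples that the rule used as well. None of the 5 CKIs was called in the comparison without DMSO given further on.

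The adjusted p of 1 gene depends on how many other genes a CKI moved. TG100572, with 16, 14 and 11 counts and a larger difference (−1.58) than Apitolisib, was not called (limma adjusted p = 0.103). By the intended targets of the study, 3 CKIs outside the designated JAKi were used against a JAK family kinase, namely Apitolisib (JAK1), TG100572 (TYK2) and MK5108 (JAK2), and MK5108 gave 25, 26 and 38 counts. Adjusted over all genes and all 52 contrasts together, 5 CKIs passed: AZD2014, Midostaurin, X396, Bafetinib and TG100572. The calls also depended on which replicates entered the fit. Without replicate 2 of every group, which holds the DMSO sample at 84, AZD2014 alone was called, and without replicate 1 AZD2014 and Midostaurin were. With DMSO set 1 alone the same pair was called, and with set 2 alone 5 CKIs were. The mitochondrial share was above the DMSO range in at least 1 sample of X396, Bafetinib, Apitolisib, PF04691502, BGT226 and Lapatinib, the highest being 4.47% in Bafetinib. It stayed between 0.965% and 1.64% with AZD2014 and Midostaurin.

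**Figure D2:**
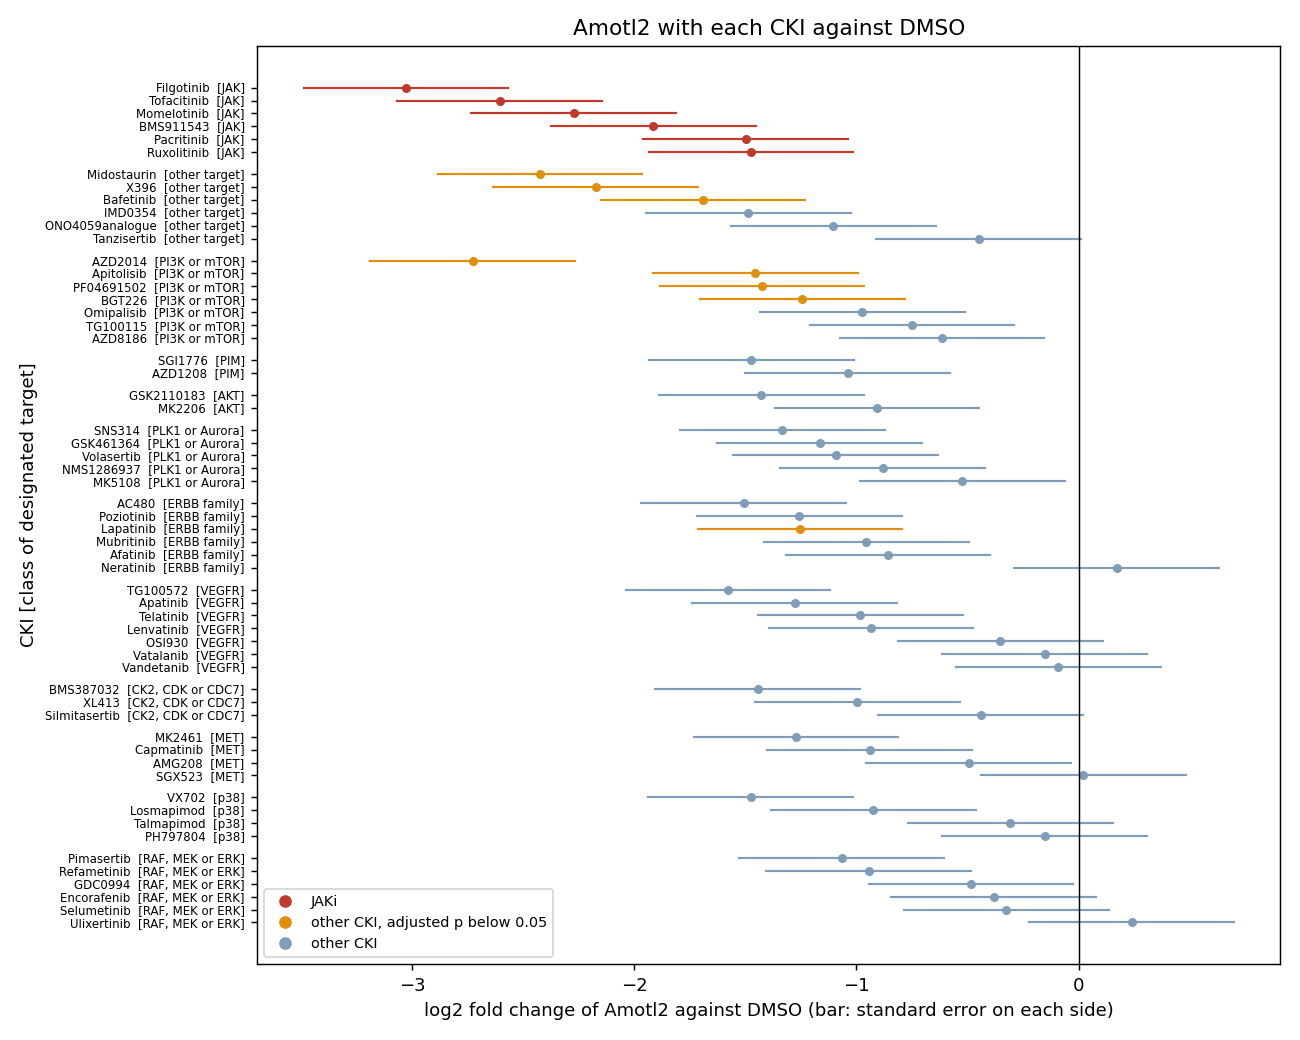
Log2 fold change of Amotl2 against DMSO for each of the 58 CKIs (points) with 1 standard error on each side (bars), grouped by the class of the designated target and ordered by the median of the class means. The JAKi lie between −3.03 and −1.47, and the CKIs of the RAF, MEK or ERK class between −1.07 and 0.24.

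A comparison that leaves out both DMSO and the JAKi set each of the 52 other CKIs against the mean of the other 51. AZD2014 was lower by 1.79 ± 0.38 (SE) on the log2 scale (limma adjusted p = 0.000119), in a contrast where 18.9% of the tested genes were called. Midostaurin differed by −1.48 ± 0.38 (limma adjusted p = 0.00558; 5.8% of genes called). No other CKI was called lower and 0 were called higher, while 3 were lower and 6 higher at an unadjusted p below 0.05 (limma). Without replicate 2 AZD2014 was the only CKI called.

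At the high end, Ulixertinib, an ERK inhibitor, gave 53, 36 and 66 normalized counts and lay 1.24 above the mean of the others (limma adjusted p = 0.190). Neratinib, an irreversible ERBB inhibitor, gave 40, 44 and 62 and lay 1.17 above it (limma adjusted p = 0.0562). SGX523, a MET inhibitor, gave 41, 26 and 74, and Vandetanib, with 48, 26 and 50, came next below DMSO. The difference of X396 from the mean of the others was −1.22 (limma adjusted p = 0.153), and it was called in a fit with a replicate block and the mitochondrial share (−1.24, adjusted p = 0.0491).

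By the class of the designated target, the median of the group means was lowest for the 6 JAKi, at 10.3 normalized counts. Amotl2 was picked for its fall with some of these JAKi, so the low place of their class is only a description. Of the other classes, the 7 PI3K or mTOR inhibitors came next at 17.3, if the 6 CKIs with other targets (15.8) are set aside. The median was highest for the 6 RAF, MEK or ERK inhibitors, at 32.3, and for the 4 p38 inhibitors, at 31.2. Classes were wide. The PI3K or mTOR class ran from 5.67 with AZD2014 to 28.7 with AZD8186, and the ERBB class from 14.3 with AC480 to 48.7 with Neratinib. In the order of the 59 groups, none of the 58 neighbouring pairs was separated by more than the standard error of the gap. With this many ordered groups, gaps between neighbours are small even where groups form clusters. The comparison of neighbours therefore cannot show whether the order has steps. The largest gap on the log2 scale was 0.30, where the standard error of a difference between 2 CKIs was 0.53.

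The genes whose group means were most like those of Amotl2 were found by Pearson's r over the 59 group means of log2 values. These points share libraries and the DMSO group with the choice of Amotl2, so r is a description. The 12714 genes had a median r of −0.01, with quartiles at −0.21 and 0.19. In all, 50 genes had r above 0.7 and 9 had r below −0.6.

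Macir, a regulator of macrophage immune metabolism, was the closest with r = 0.84, and r = 0.80 over the 53 groups without JAKi. Macir had 1335 to 2800 normalized counts in the 6 DMSO samples (median 1660), 711 to 958 with Filgotinib, 778 to 1025 with AZD2014 and 689 to 870 with Midostaurin, and none of these 3 groups overlapped with DMSO. Its differences from DMSO were −1.10 with Filgotinib, −0.93 with AZD2014 and −1.18 with Midostaurin (SE 0.18). Macir is far more abundant than Amotl2, so its group means carry less counting error.

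The others of the first 10 were Mgat1, which starts complex N-glycan synthesis (r = 0.80), the predicted gene Gm14608 (0.80), the homeobox factor Hhex (0.80), Keap1, the adaptor that brings NRF2 to degradation (0.80), the mitochondrial ubiquitin ligase Marchf5 (0.79), the ubiquitin ligase Trim26 (0.78), the histone methyltransferase Setdb2 (0.78), the FERM-domain scaffold Frmd4a (0.78) and Themis2, a signalling scaffold of macrophages and B cells (0.78). Hhex had 145 to 502 normalized counts in DMSO, 73 to 112 with Filgotinib and 32 to 48 with Midostaurin. Its log2 difference was −2.55 with Midostaurin and −1.24 with Filgotinib (SE 0.34). Themis2 had 3347 to 6489 in DMSO, 1088 to 1521 with Filgotinib and 2861 to 3778 with AZD2014, so it overlapped with DMSO for AZD2014 but not for Filgotinib. Setdb2 had 831 to 1969 in DMSO and 173 to 322 with Filgotinib. Hhex with AZD2014 (97 to 148) overlapped with DMSO. With BMS911543 Setdb2 (635 to 1318) and Themis2 (3129 to 4984) overlapped with DMSO, while Macir (895 to 1108) and Hhex (54 to 117) did not.

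Leaving out the 6 JAKi kept 5 of the first 10 genes in place (Macir, Keap1, Setdb2, Frmd4a and Themis2), and all 10 stayed among the first 50. The genes that entered were Slc25a22, Plekha2, Tpst1, Gm45935 and Tnfsf10, the last encoding the death ligand TRAIL. Gm45935 overlaps Setdb2 on the same strand, so the reads of these genes may not be separable. Within groups, after the mean of each group was subtracted from its samples, r of the 10 genes with Amotl2 over 180 samples was 0.41 to 0.74. Samples of 1 treatment that were high in Amotl2 were thus also high in these genes, which is a relation between libraries and not between CKIs.

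The genes with the lowest r were the antiproliferative gene Btg2 (−0.67), Tmem11 of the mitochondrial inner membrane (−0.66), the helix-loop-helix inhibitor Id3 (−0.65), the ubiquitin ligase Trim13 (−0.64) and the neutrophil chemokine Cxcl1 (−0.64). Id3 had 579 to 1035 normalized counts in DMSO, 1913 to 2305 with Filgotinib, 1522 to 2701 with AZD2014 and 1749 to 2260 with Midostaurin. Cxcl1 had 622 to 786 in DMSO, 1372 to 1739 with Filgotinib and 1490 to 2383 with Tofacitinib. Both genes were higher in every one of these samples than in any DMSO sample. With BMS911543 Id3 (735 to 1239) overlapped with DMSO and Cxcl1 (950 to 1640) did not. For Cxcl1 the relation within groups was −0.02, in contrast to −0.62 for Id3.

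The nearest genes on either side of Amotl2 on chromosome 9 that passed the filter did not follow it. They need not be adjacent to Amotl2, and the first on the downstream side, Srprb, begins at position 103188033. Cep63 (r = 0.12) and Anapc13 (−0.18) upstream and Srprb (−0.03) and Trf (0.05) downstream all lay between the quartiles of all genes.

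**Figure D3:**
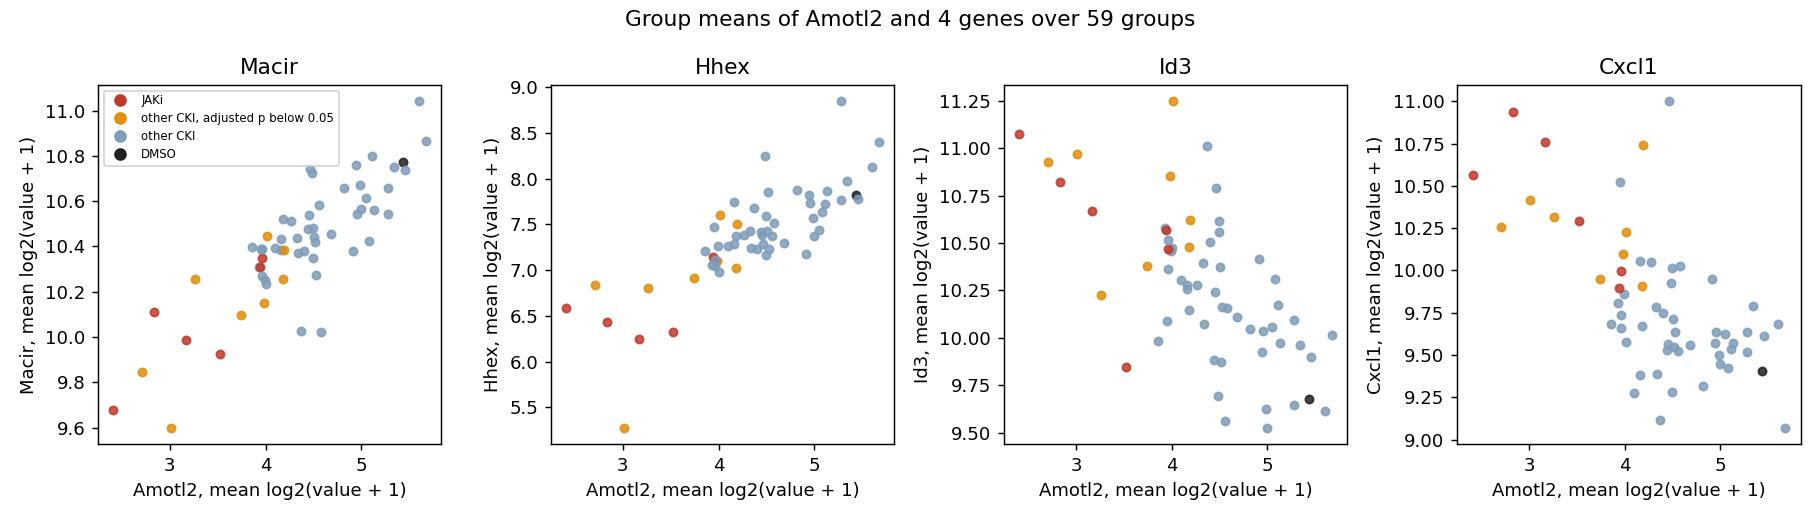
Group means of log2(value + 1) for Amotl2 (x axis) against Macir, Hhex, Id3 and Cxcl1 (y axes), 1 point for each of the 59 groups. Macir (r = 0.84) and Hhex (r = 0.80) rise with Amotl2, and Id3 (r = −0.65) and Cxcl1 (r = −0.64) fall with it.

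The pathway around Amotl2 was examined with gene lists in 10 contrasts with DMSO, those of the 6 JAKi and of AZD2014, Midostaurin, X396 and Bafetinib. These lists were tested in the same limma fit over all genes, whose median log2 difference ran from −0.04 with Filgotinib to 0.17 with Tofacitinib. In the JAKi contrasts the share of all tested genes that was called was 20.7% with Filgotinib, 9.88% with Tofacitinib, 8.55% with BMS911543, 0.787% with Momelotinib and 0.173% with Pacritinib. With Ruxolitinib 0 genes (0%) were called by limma, although 590 had an unadjusted p below 0.05. Pooled over the 10 contrasts, 6.70% of the tests of all genes gave a call. The counts of calls depended on the replicates: without replicate 2 of every group they were 4 for the Hippo list, 3 for YAP and TAZ targets, 1 for junction partners, 11 for JAK-STAT targets and 3 for SRF targets, in place of 11, 11, 4, 31 and 13. Without replicate 1 they were 6, 6, 2, 23 and 6, and without replicate 3 they were 14, 6, 2, 37 and 11.

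Most of the nuclear end of the Hippo pathway was barely present in these macrophages. Yap1 had 0 to 1 normalized counts in DMSO and was at 0 in 160 of 180 samples, and Wwtr1, which encodes TAZ, had 0 to 1 in DMSO and was at 0 in 118. Tead1, Tead3 and Tead4 were at 0 in all 6 DMSO samples. The kinase end was present, with DMSO means of 1509 for Stk4 (MST1), 200.5 for Stk3 (MST2), 139 for Lats1 and 1645 for the LATS co-activator Mob1a. Of the 24 Hippo genes 15 were tested, and 11 calls were made over the 10 contrasts, 4 higher and 7 lower, which is 7.33% of the tests beside 6.70% over all genes.

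Mob1a fell with AZD2014 (−1.82 ± 0.21, limma adjusted p = 1.31e-11), BMS911543 (−1.29), Filgotinib (−1.14) and Bafetinib (−1.02, adjusted p = 0.00285). Its normalized mean was 453 with AZD2014 against 1645 with DMSO. Vgll4, a TEAD cofactor that competes with YAP, rose with AZD2014 (1.30, limma adjusted p = 0.00169) and Filgotinib (0.87, adjusted p = 0.0464). Lats2 rose with Filgotinib (0.65) and Taok1, an upstream kinase, with Tofacitinib (0.96). Frmd6, an upstream FERM protein, fell with X396 (−0.88) and BMS911543 (−0.48), and Mob1b with AZD2014 (−0.95). With Filgotinib 3 of the 15 were called and with AZD2014 3, beside shares of 20.7% and 19.6% of all genes.

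Of the 21 YAP and TAZ target genes besides Amotl2, 10 were tested, and 11 calls were made over the 10 contrasts, 4 higher and 7 lower, which is 11% of the tests beside 6.70% over all genes. With AZD2014 3 of the 10 were called beside 19.6% of all genes, and with Filgotinib 2 of the 10 beside 20.7%. F3, the gene of tissue factor, accounted for 6 of the 7 lower calls. It had a mean of 120 normalized counts in DMSO (85 to 151) and fell with Filgotinib (−2.86 ± 0.32, limma adjusted p = 3.07e-12), Midostaurin (−2.49, adjusted p = 3.34e-09), Momelotinib (−2.27), Pacritinib (−1.32), Tofacitinib (−1.01) and AZD2014 (−0.94). Axl fell with AZD2014 (−0.59). Gadd45a rose with Midostaurin (1.12) and AZD2014 (0.84), Dock5 rose with Tofacitinib (0.76) and Lats2, which is on both lists, rose with Filgotinib. The classical targets Ccn1 and Ankrd1 were below the filter, with 2 to 5 counts and 0 counts in DMSO, and Ccn2 (5 to 40 counts) was not called in any of the 10 contrasts. The median log2 difference of the tested targets with Filgotinib was 0.13, against −0.04 over all genes.

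The only other angiomotin tested, Amot (7 to 21 counts in DMSO), was not called in any of the 10 contrasts, with differences between −0.20 and 0.37. Of 14 junction and polarity partners 6 were tested, with 4 calls over the 10 contrasts, all lower, which is 6.67% of the tests beside 6.70% over all genes. Arhgap17, a RhoGAP that binds angiomotin, fell with Midostaurin (−0.76), Momelotinib (−0.46) and Tofacitinib (−0.36), and Ctnnb1 with Filgotinib (−0.67).

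All 20 JAK-STAT target genes were tested, and 31 calls were made over the 10 contrasts, 5 higher and 26 lower, which is 15.5% of the tests beside 6.70% over all genes. With Filgotinib 11 (55%) were called beside 20.7% of all genes, 10 of them lower, and the list median was −0.77 against −0.04 over all genes. With Midostaurin 8 (40%) were called beside 4.56% of all genes, 7 of them lower, with a median of −0.61 against 0.11. With Momelotinib 3 (15%) were called lower beside 0.787% of all genes (median −0.48 against 0.11), and with BMS911543 3 (15%) were called beside 8.55%, 2 of them lower. With AZD2014 4 (20%) were called, 2 of them lower, close to the 19.6% of all genes. With Tofacitinib 1 (5%) was called beside 9.88% and with Bafetinib 1 (5%) beside 2.13%. With Pacritinib, Ruxolitinib and X396 limma called 0.

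Socs1, a feedback inhibitor of JAKs, had 618 to 5735 normalized counts in DMSO and fell with AZD2014 (−4.55 ± 0.55, limma adjusted p = 4.24e-11), BMS911543 (−3.82), Filgotinib (−3.05) and Bafetinib (−2.50). The interferon-induced antiviral gene Rsad2 fell with Midostaurin (−2.88 ± 0.29, limma adjusted p = 3.34e-14), Momelotinib (−1.34) and Filgotinib (−1.16), and with AZD2014 it was not called. Irf1 fell with Midostaurin (−1.06), Filgotinib (−0.89) and Momelotinib (−0.80), and Stat3 with Filgotinib (−0.89) and Tofacitinib (−0.50). Bcl6, a repressor that is itself a STAT target, rose with Filgotinib (1.28), BMS911543 (1.11) and AZD2014 (1.02). Over the 59 groups the mean log2 level of the list had r = 0.55 with Amotl2, and 0.48 without JAKi.

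SRF target genes, which respond to actin dynamics, gave 13 calls among 17 tested genes over the 10 contrasts, 5 higher and 8 lower, or 7.65% of the tests beside 6.70% over all genes, and their mean level had r = 0.02 with Amotl2. Fos fell with Filgotinib (−0.71) and Midostaurin (−0.64), and Srf itself rose with Tofacitinib (0.98) and Filgotinib (0.71). The corresponding r, over the tested genes of each list, was 0.13 for the Hippo list, 0.19 for the YAP and TAZ targets and 0.27 for the junction partners.

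**Figure D4:**
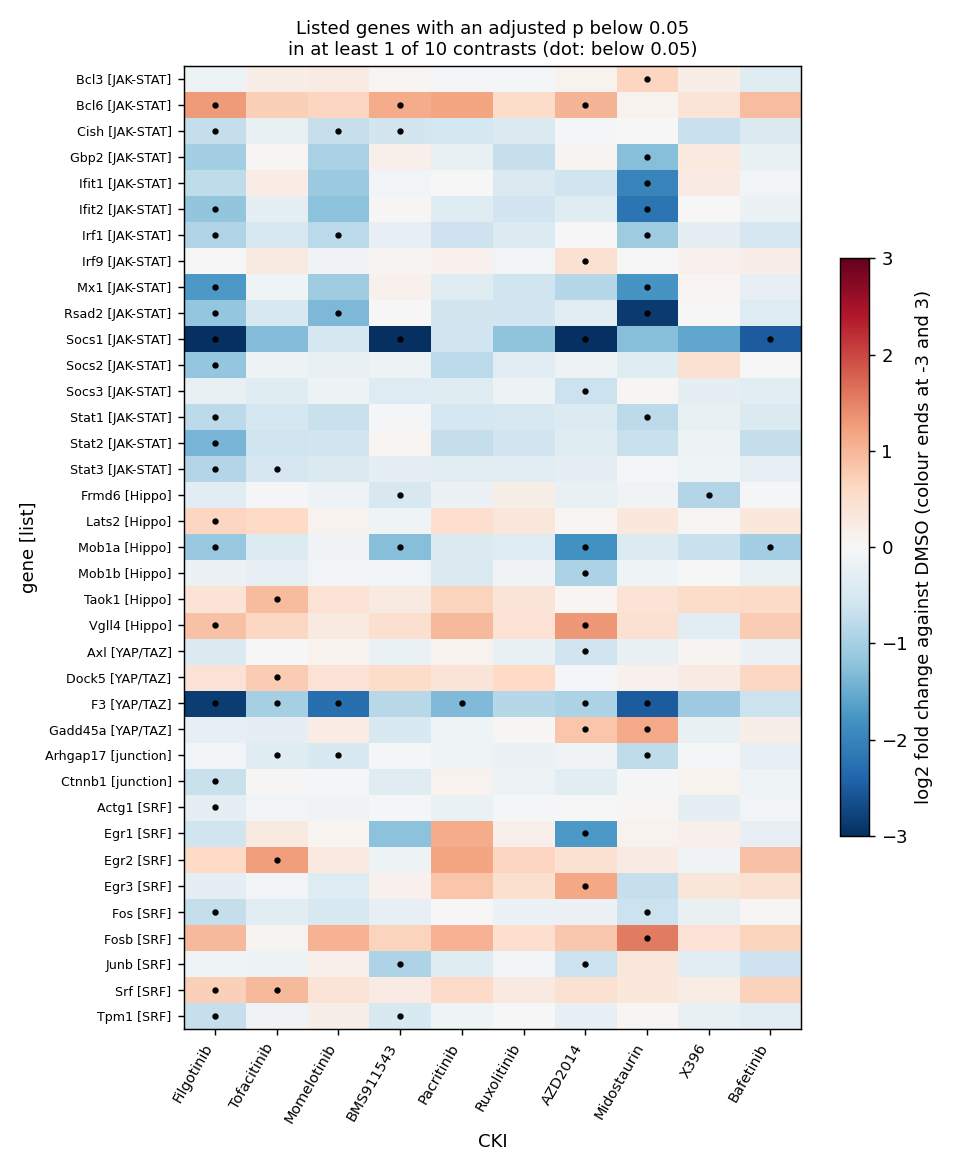
Log2 fold change against DMSO (colour) of the 37 listed genes with an adjusted p below 0.05 in at least 1 of 10 contrasts (columns), with a dot where the adjusted p is below 0.05. Socs1 (−4.55 with AZD2014) lies past the end of the colour scale and F3 carries dots in 6 columns.

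Macrophage markers were present in every library. Csf1r had 24416 to 25418 normalized counts in DMSO and Adgre1 5747 to 10541. Of the 6 endothelial markers, Tek and Emcn were at 0 in all DMSO samples, Cdh5 (VE-cadherin) had 0 to 3 counts and Pecam1 0 to 5, while Kdr had 46 to 356. Their summed level was 66 to 380 in DMSO, 92 to 141 with Filgotinib, 150 to 261 with AZD2014 and 115 to 190 with Midostaurin. Only 2 of these markers, Kdr and Egfl7, passed the filter. Over the 59 groups the mean log2 level of Kdr and Egfl7 had r = 0.34 with Amotl2. The 7 fibroblast markers summed to 28 to 180 in DMSO, 31 to 102 with Filgotinib, 48 to 246 with Tofacitinib, 37 to 56 with AZD2014 and 65 to 178 with Midostaurin. In DMSO Col1a1 had 11 to 98 counts, Col1a2 7 to 43 and Pdgfrb 9 to 33. The other fibroblast markers were below the filter, with Dcn at 0 in 5 of 6 DMSO samples. The mean log2 level of Col1a1, Col1a2 and Pdgfrb had r = −0.08 with Amotl2. The 4 epithelial markers summed to 0 to 3 counts in DMSO, and the 3 lymphocyte markers to 0 to 2. The 5 neutrophil markers summed to 185 to 526 in DMSO, 360 to 552 with Filgotinib, 377 to 1199 with Tofacitinib, 230 to 412 with AZD2014 and 356 to 476 with Midostaurin, so that Tofacitinib went past the DMSO range for both fibroblast and neutrophil markers and Filgotinib for neutrophil markers. The part of these in the Amotl2 values was not tested. In bulk samples, fewer expressing cells and less RNA per cell cannot be told apart.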

How the data were processed

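RNA from BMDMs was sequenced by the authors with a SMART-seq2 polyA protocol. Reads were aligned with TopHat2 2.1.1 to mm10, blacklisted regions were removed with bedtools 2.29.2 and reads were counted over the exons of RefSeq genes. The deposited table holds these exonic read counts after the authors scaled each library on invariant genes and rounded the result, so its values were treated as a score (normalized values) and not as raw counts. Totals per sample were 9477340 to 12273349, and an estimated 6540000 to 17040000 exonic reads lay behind them in the 167 samples where the scale could be found. The authors' own contrasts used DESeq2 in R 3.6.2.

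Genes with a mean of at least 10 over the 180 samples were kept, log2(value + 1) was fitted with limma 3.58.1 (R 4.3.3, variance trend) with 59 groups in 1 fit, and p-values were adjusted by Benjamini-Hochberg over 12714 genes within each contrast. Calls are at an adjusted p below 0.05. Scripts were tested on simulated data. Likeness was Pearson's r over group means. The named genes were Amotl2, the 10 highest and 5 lowest r, the 10 highest r without JAKi, members of the lists and the nearest tested genes on each side. The named CKIs were the 6 JAKi, those called, and those at either end of the order, and TG100572, MK5108, AC480 and AZD8186 were named after their values were seen. The gene, the lists and the tests were chosen with earlier results of these data known. Other pseudocounts (0.5 and 10), filters, scalings, DMSO sets and blocks were tried. A list member is not reported here and was left out of its list's counts. Groups came from the sample titles. The study's methods call the replicates independent biological replicates.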

Additional observations from a re-analysis of the deposited data

Results flagged for a closer look

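Amotl2, the named genes with the highest and lowest r and its neighbours on chromosome 9 were examined in the 6 DMSO samples on the log2 scale. Among these, 1 had a sample far from the others. Genes named only as list members were not examined. Tmem11 had 348 to 425 normalized counts, and the gap of its farthest sample to the next was 0.653 of the whole range. Chance alone gives such a gap in about 1 of 20 groups, and 1 of the genes examined had one.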

How the results depend on the processing

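The differences of Amotl2 between the 6 JAKi and DMSO kept their sign in every alternative run. With a pseudocount of 10 they shrank to −1.88 for Filgotinib, −1.64 for Tofacitinib and −1.51 for Momelotinib. Leaving out 1 replicate gave −3.25 to −2.70 for Filgotinib, −3.16 to −2.25 for Tofacitinib, −2.80 to −1.91 for Momelotinib, −2.54 to −1.37 for BMS911543, −2.45 to −0.84 for Pacritinib and −1.48 to −1.46 for Ruxolitinib. Amotl2 is below a filter at a mean of 50, so that filter gave no value for it. The number of other CKIs called lower than DMSO was 8, and 4 without a filter, 2 with DMSO set 1 alone, 5 with set 2 alone, 4 with only the compared groups in the fit, 5 when adjusted over all genes and 52 contrasts, and 1 to 12 when a replicate was left out. With a replicate block it was 9, and with a replicate block and the mitochondrial share 5 (AZD2014, BGT226, Midostaurin, TG100572 and X396). Against the mean of the others, the count of lower CKIs was 1 to 2 when a replicate was left out and 3 with a replicate block and the mitochondrial share, which added X396, and 1 CKI (Neratinib) was called higher with a pseudocount of 10, with median-of-ratios scaling and with a replicate block. The difference of Lapatinib from the others ran from −0.59 without replicate 2 to 0.20 without replicate 1, and none of these was called.
List calls over the 10 contrasts changed as follows. Without a filter they were 7 for Hippo genes and 7 for YAP and TAZ targets. With DMSO set 1 alone they were 6 for YAP and TAZ targets, 2 for junction partners and 6 for SRF targets, and with set 2 alone 5 for YAP and TAZ targets, 2 for junction partners and 8 for SRF targets. With only the compared groups in the fit they were 5 for Hippo genes, 6 for YAP and TAZ targets, 1 for junction partners and 6 for SRF targets. With a replicate block they were 20 for Hippo genes, 8 for junction partners, 48 for JAK-STAT targets and 24 for SRF targets. Leaving out a replicate gave 4 to 14 for Hippo genes, 3 to 6 for YAP and TAZ targets, 1 to 2 for junction partners, 11 to 37 for JAK-STAT targets and 3 to 11 for SRF targets.
Of the 10 genes closest to Amotl2, 6 were kept by Spearman's rho, 5 without the JAKi, 6 without the 3 groups with the lowest Amotl2, 6 over 180 samples after subtracting replicate means, and 7 to 8 when a replicate was left out. In 2 settings chosen after seeing the data, 6 were kept without the 2 groups farthest from the median and 1 after subtracting group means. The cause of these shifts was not tested.
The labels give the groups the same replicate numbers without saying what a number shares. The mean correlation, over all tested genes, between deviations of samples from their groups was 0.23 for the same number and −0.11 for different numbers. The deviations within a group cancel out, so the value for different numbers follows from the first and is not a separate observation. The lowest same-number value was −0.73. Samples with the same number were thus more alike on average, and what they share was not tested. As the labels do not explain the numbers, the main fit did not take them as pairs. The replicate block is given as an alternative. It changed the count of CKIs called lower than DMSO little (9 against 8) but raised the calls of the Hippo, junction, JAK-STAT and SRF lists, as given above.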
